A study of Sorghum bicolor with 16 samples.

Results

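The level of 4 genes of the NAC family, a plant-specific family of transcription factors, was followed through grain filling in sorghum endosperm: Sobic.005G056300, Sobic.002G192600, Sobic.003G105600 and Sobic.009G086800. These 4 of the 34129 genes in the expression table were taken because the study's text names them, from earlier work, as NAC factors that bind the cis-regulatory region of the sorghum waxy gene, and because it describes them as lower in the mutant at the earliest age on these same libraries. The direction at that age is therefore not independent evidence. Their gene IDs place them on chromosomes 5, 2, 3 and 9. All 4 passed the filter on low values, a mean above 1 FPKM (the fragments assigned to a gene, scaled to transcript length and to the fragments mapped in the library), in every comparison.

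Messenger RNA was measured in endosperm dissected from developing seeds of the sorghum line BTx623 (WT) and of 15M2-1184, a line derived from BTx623 by mutagenesis with ethyl methanesulfonate (EMS). The mutant plants were homozygous for a stop-gained allele, wxe, of SbGBSSI (Sobic.010G022600), which encodes the granule-bound starch synthase that makes amylose. Seeds were collected at 6, 11, 16 and 21 DPA (days post anthesis) from bagged panicles of field plants in neighbouring rows. Each of the 8 groups of genotype and age had 2 libraries, and each library pooled material from 3 panicles. A line made with EMS carries other mutations as well, so a difference named here for wxe is a difference between 2 lines.

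NAC proteins bind DNA through a conserved domain near their N-terminus, and the rest of the protein usually acts on transcription. In cereal endosperm, several are activators of the filling programme. In maize, ZmNAC128 and ZmNAC130 raise the expression of starch synthesis and zein storage protein genes, and OsNAC20 and OsNAC26 do so in rice. Which sorghum gene corresponds to which of these was not examined here, and no role of the 4 genes beyond binding of the waxy promoter region was taken from the study. Further classes of gene are set beside them: starch synthesis genes, with SbGBSSI itself, and genes of storage proteins, the kafirins (prolamins of sorghum starchy endosperm) and the globulins, whose maize namesakes are stored mainly in the embryo.

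Summed over all genes, the libraries held between 493357 and 1001504 FPKM. From the steps between low values, a single read was worth 0.979 to 1.09 times at 6 DPA, and 1.59 to 2.50 times at the later ages, what it was worth in the first WT library of 6 DPA, so that a given FPKM rested on fewer reads at the later ages. Between 50.7% and 79.9% of low values were whole multiples of that step within 0.05 of a read, and the number of reads behind a gene was not recovered. Genes of the starchy endosperm were abundant: SbGBSSI ranked 70 among all genes in WT at 6 DPA and 15 at 21 DPA. The summed level of the globulins, which moves with some of the results below, was 1.59 to 1.78 FPKM in the WT libraries and 3.60 to 8.96 in the wxe libraries at 6 DPA, 47.8 to 49.96 and 14.1 to 21.8 at 11 DPA, 44.3 to 153 and 220.2 to 262 at 16 DPA, and 135 to 398 and 401 to 442 at 21 DPA. Neither globulin gene passed the test between genotypes at any age (adjusted p from 0.0517 to 0.767, limma). The study, which tested with Cuffdiff, does report them as higher in the mutant. It names 6 and 16 DPA for Sobic.001G144900, and 6, 16 and 21 DPA for Sobic.001G059800. The globulins' part, and that of any other tissue, in the NAC levels was not tested, and in whole endosperm fewer cells of a type cannot be told apart from less RNA per cell.

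The 4 genes followed 2 courses. Sobic.005G056300 and Sobic.002G192600 were highest at 11 DPA in both genotypes, whereas Sobic.003G105600 and Sobic.009G086800 were highest at 21 DPA in both. All 4 were lowest at 6 DPA. In wxe all 4 were lower than in WT at 6 DPA, by 2.02 to 4.85 times in the group means, and at 16 and 21 DPA none of them was called different.

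**Figure D1:**
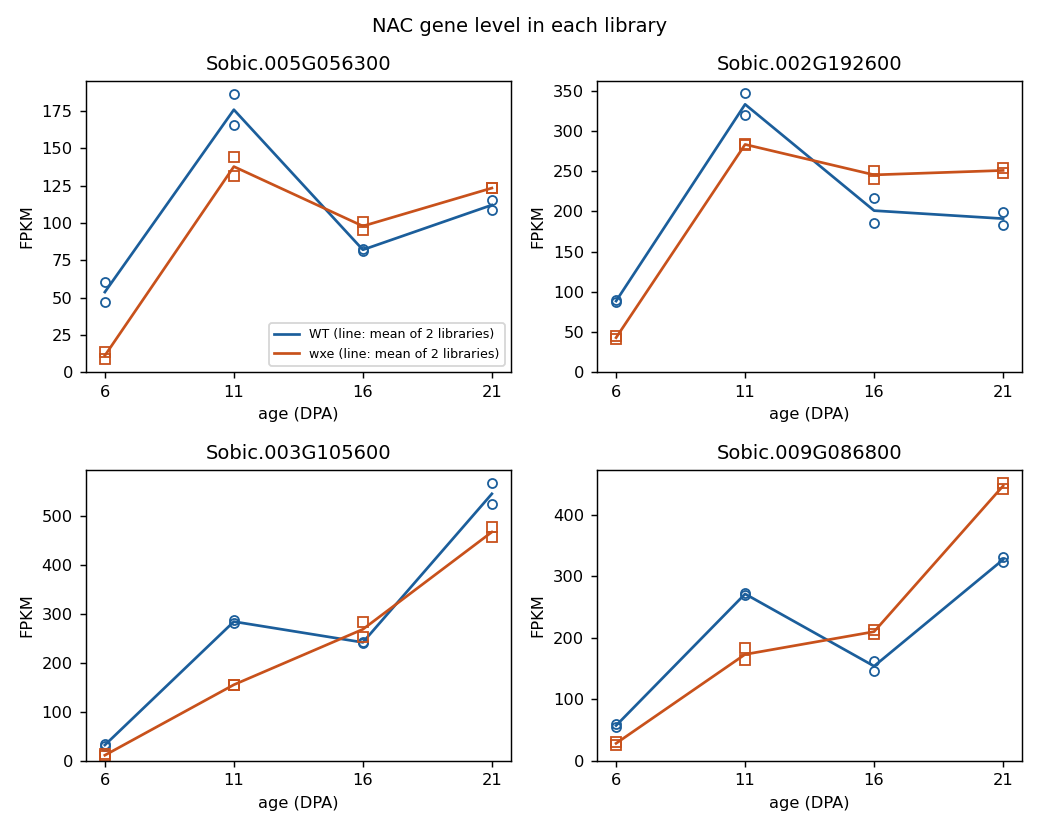
FPKM of each NAC gene (y axis, linear, from 0) against age in DPA (x axis), with circles for the 2 WT libraries and squares for the 2 wxe libraries of each age and lines through the group means. The wxe squares lie below the WT circles for every gene at 6 and 11 DPA, and above them at 16 and 21 DPA except for Sobic.003G105600 at 21 DPA.

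Sobic.005G056300 had the lowest level of the 4 genes from 11 DPA on and the largest difference between genotypes. At 6 DPA it was at 47.1 and 60.2 FPKM in the WT libraries and at 13.4 and 8.74 in the wxe libraries. At 11 DPA the libraries read 166 and 186 FPKM in WT against 131 and 144 in wxe. The mutant libraries were thus the low ones at both ages, with a gap at 6 DPA larger than the spread within either genotype. At 16 DPA the values were 81.3 and 82.7 FPKM in WT against 100.3 and 95.4 in wxe. At 21 DPA they were 109 and 115 FPKM in WT against 123.3 and 123.5 in wxe. Here the mutant libraries were the higher ones by a small margin. The difference at 6 DPA, from 53.6 ± 9.29 FPKM in WT to 11.1 ± 3.28 in wxe (SD, n = 2), came to -2.20 on the log2 scale with a standard error of 0.16. This gene and the others below were named for a low level in wxe at 6 DPA on these libraries. Their differences at that age are therefore given without p. In rank among all genes Sobic.005G056300 stood at 1572 in WT and at 6228 in wxe at 6 DPA.

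Sobic.002G192600 shared the peak at 11 DPA and was the most abundant of the 4 genes at 6 and 11 DPA. At 6 DPA it was at 89.4 and 87.4 FPKM in WT against 44.6 and 41.1 in wxe. At 11 DPA it was at 347 and 319.5 FPKM in WT against 282 and 284 in wxe. As for Sobic.005G056300, the WT libraries were higher at both ages, but the gap at 11 DPA was small beside the level. At 16 DPA it was at 217 and 185 FPKM in WT against 250.04 and 241 in wxe, and at 21 DPA at 183 and 199 in WT against 254 and 248 in wxe. The order of the genotypes was thus the opposite at the later ages. Only the difference at 6 DPA was called, with means of 88.4 ± 1.46 and 42.8 ± 2.50 FPKM (SD, n = 2). It came to -1.03 on the log2 scale with a standard error of 0.10, at the age for which the gene was named.

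Sobic.003G105600 had the widest range of the 4 genes. At 6 DPA it was at 29.8 and 34.5 FPKM in WT against 13.8 and 8.86 in wxe. At 11 DPA it was at 288 and 281 FPKM in WT against 155.4 and 155.6 in wxe. The mutant libraries stood clearly below WT at both ages. At 16 DPA it was at 244 and 240.3 FPKM in WT against 254 and 284 in wxe, and at 21 DPA at 567 and 525 in WT against 478 and 458 in wxe. The mutant libraries were thus above WT at 16 DPA and below it at 21 DPA. The mean of 546 FPKM in WT at 21 DPA placed it at rank 101 of all genes. It was called lower at 6 DPA, the age for which it was named, at 35.2% of the WT mean (-1.45 ± 0.15 on the log2 scale, ± standard error). At 11 DPA it was also called lower, at 54.6% (-0.87 ± 0.15, limma adjusted p = 0.00131).

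Sobic.009G086800 had the same late peak. At 6 DPA it was at 55.1 and 59.5 FPKM in WT against 31.2 and 25.5 in wxe, and at 11 DPA at 269.6 and 273 in WT against 183 and 163 in wxe. The mutant libraries were again below WT at the first 2 ages. At 16 DPA it was at 162 and 146 FPKM in WT against 207 and 213 in wxe, and at 21 DPA at 331 and 323 in WT against 442 and 452 in wxe. At these ages the mutant libraries were above WT, with means at 136% and 137% of those of WT. The gene was called lower at 6 DPA, the age for which it was named (-0.997 ± 0.11 on the log2 scale), and at 11 DPA (-0.65 ± 0.11, limma adjusted p = 8.72e-04). At 21 DPA its log2 fold change of 0.45 had an adjusted p of 0.0194 but did not reach the fold threshold of 0.58.

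Between genotypes, 4 of the 4 NAC genes were called lower in wxe at 6 DPA, where 5.15% of 16967 tested genes were called lower and 14.4% higher (limma on log2(FPKM + 1), adjusted p under 0.05 and a log2 fold change of at least 0.58 in size). The count repeats the ground on which the genes were named. Their median log2 fold change was -1.24, against 0.0075 over all genes tested. At 11 DPA 2 of the 4, Sobic.003G105600 and Sobic.009G086800, were called lower, where 12.1% of 15808 genes were and 5.78% were called higher. The other 2 had log2 fold changes of -0.35 (95% interval -0.70 to -0.0036, adjusted p = 0.110) for Sobic.005G056300 and -0.23 (-0.45 to -0.019, adjusted p = 0.0876) for Sobic.002G192600. The call for Sobic.009G086800 at 11 DPA was near the fold threshold: it was -0.57 without the second wxe library of that age.

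At 16 DPA 0 of the 4 were called by limma in either direction, where 0.987% of 14990 genes were called. Sobic.009G086800 and Sobic.002G192600 had log2 fold changes of 0.45 (95% interval 0.22 to 0.68, adjusted p = 0.0629) and 0.29 (0.078 to 0.50, adjusted p = 0.172). Their unadjusted p was under 0.05, a level at which the share of all genes was not counted, so nothing is read from it. At 21 DPA 0 of the 4 were called, against 6.51% of 14966 genes. The unadjusted p of the same genes was again under 0.05, with the same limit. For Sobic.002G192600 the value at 21 DPA was 0.39 (95% interval 0.18 to 0.61, adjusted p = 0.0239), again under the fold threshold. For Sobic.005G056300 the intervals ran from -0.094 to 0.60 at 16 DPA and from -0.21 to 0.48 at 21 DPA, and for Sobic.003G105600 from -0.18 to 0.48 and from -0.55 to 0.11. These bounds leave out a loss of the size seen at 6 DPA in any of the 4 genes.

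**Figure D2:**
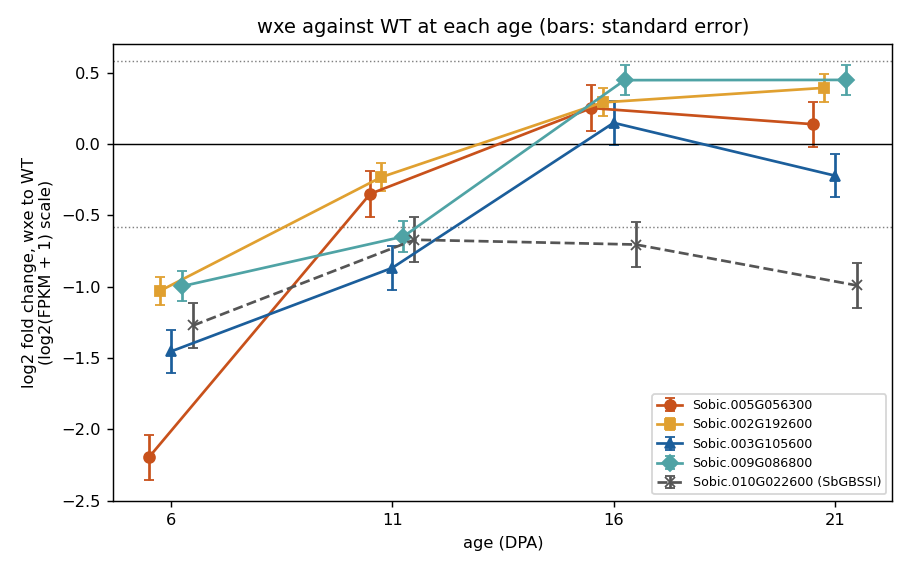
Log2 fold change of wxe against WT on the log2(FPKM + 1) scale (y axis) at each age in DPA (x axis, points shifted slightly sideways), with standard errors as bars, for the 4 NAC genes and, dashed, SbGBSSI. The dotted lines mark the fold threshold of 0.58 in each direction: the NAC values lie between -2.20 and -0.997 at 6 DPA and between -0.22 and 0.45 at 21 DPA, while SbGBSSI stays between -1.27 and -0.67.

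In all 16 pairs of gene and age the 2 wxe libraries lay outside the range of the 2 WT libraries. Such a separation, which counts both directions, is common with 2 libraries a side. Of all genes tested at 6 DPA, wxe libraries lay below WT for 31.9% and above it for 34.9%. At 11 DPA the shares below and above were 34.3% and 33.6%. At 16 DPA they were 29.0% and 24.5%, and at 21 DPA 25.8% and 27.8%. With 2 libraries a side, the smallest exact two-sided permutation p is 0.333, so that the calls rest on the spread that limma shares across genes.

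The difference between genotypes was also compared between ages in the same fit. Since the genes were named for their low level in wxe at 6 DPA on these libraries, contrasts that subtract a later effect from that of 6 DPA are largely set by that choice. They are given as descriptions, and nothing is read from their counts against the background. The effect of wxe at 6 DPA was more negative than at 16 DPA in 4 of 4 genes (background 6.63% of all genes tested) and more negative than at 21 DPA in 4 of 4 (background 10.4%). The differences were -2.45 and -2.33 on the log2 scale for Sobic.005G056300, -1.60 and -1.23 for Sobic.003G105600, -1.44 and -1.45 for Sobic.009G086800, and -1.32 and -1.42 for Sobic.002G192600. Between 6 and 11 DPA the effect differed in 3 of 4 genes (background 18.0%). It was the genes of the early peak that moved most there, Sobic.005G056300 by -1.85 (standard error 0.22) and Sobic.002G192600 by -0.80 (standard error 0.14). For Sobic.003G105600 the difference was -0.59, a call lost in 10 of 17 alternatives, and for Sobic.009G086800, which was not called, it was -0.35.

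The differences among the 3 later ages were tested after the values had been seen. Between 11 and 16 DPA the effect differed in 3 of 4 genes (background 10.3% in that direction): Sobic.003G105600 by -1.02, Sobic.009G086800 by -1.10 and Sobic.002G192600 by -0.52. Between 11 and 21 DPA it differed in 2 of 4 (background 9.85%), Sobic.009G086800 by -1.10 and Sobic.002G192600 by -0.63. Under quantile normalization only Sobic.009G086800 kept its call in each of these. The call for Sobic.002G192600 between 11 and 16 DPA was lost in 6 of 17 alternatives. Besides quantile normalization (-0.37, adjusted p = 0.164, limma), these left out the first WT library of 11 DPA (-0.46, 0.0843), the second of 16 DPA (-0.41, 0.0905), the first wxe library of 11 DPA (-0.52, 0.0612) or either wxe library of 16 DPA (-0.497, 0.0794, and -0.55, 0.0671). Between 16 and 21 DPA 0 of the 4 were called by limma (background 0.128%), with adjusted p from 0.593 to 0.998, and 0 had an unadjusted p under 0.05. In value, the larger part of the return of the late-peak genes towards the WT level thus lay between 11 and 16 DPA, and that of Sobic.005G056300 between 6 and 11 DPA. Which step was larger was not tested, and the values from 6 DPA are largely set by how the genes were named.

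Within each genotype, the step from 6 to 11 DPA was the steepest for all 4 genes, and all 4 were called higher in WT (background 19.6%) and in wxe (background 19.1%). In WT the mean of Sobic.003G105600 rose 8.84-fold, of Sobic.009G086800 4.73-fold, of Sobic.002G192600 3.77-fold and of Sobic.005G056300 3.28-fold. From their lower start, the wxe means rose 13.7-fold, 6.11-fold, 6.61-fold and 12.5-fold in the same order of genes. Sobic.005G056300 thus went from the shallowest rise in WT to nearly the steepest in wxe. On the log2 scale, its step was 1.70 in WT and 3.55 in wxe, and the difference of these steps is the contrast given above between 6 and 11 DPA.

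From 11 to 16 DPA 3 genes were called in WT and 1 in wxe. In WT 3 of the 4 genes were called lower (background 21.5%): Sobic.005G056300 to 46.6% of its level at 11 DPA, Sobic.009G086800 to 56.7% and Sobic.002G192600 to 60.3%. Under quantile normalization the last 2 lost the call, at log2 changes of -0.43 and -0.33 under the fold threshold, and 1 of the 4 was called. Sobic.003G105600 was at 85.1% (log2 change -0.23, adjusted p = 0.213), and the sign of this value turned under quantile normalization, to 0.19. In wxe Sobic.003G105600 was called higher, at 173% of its level at 11 DPA (background 14.2%), and none of the 4 was called lower (background 17.9%). Sobic.005G056300 was at 71.0% (log2 change -0.49, adjusted p = 0.0226, under the fold threshold), Sobic.002G192600 at 86.6% (-0.21, adjusted p = 0.0985, and 0.041 under quantile normalization) and Sobic.009G086800 at 121% (0.28, adjusted p = 0.0443, under the fold threshold). The fall from 11 to 16 DPA that the WT means show for all 4 genes was thus present in wxe in the means of the early-peak genes only.

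From 16 to 21 DPA the same genes were called in both genotypes. Sobic.003G105600 was called higher in WT (2.26-fold) and in wxe (1.74-fold), and Sobic.009G086800 in WT (2.13-fold) and in wxe (2.13-fold), which makes 2 of 4 genes in each (background 11.3% and 10.4%). For Sobic.003G105600 the effect of wxe at 16 DPA less that at 21 DPA was 0.37 (95% interval -0.098 to 0.84), which was not called. Sobic.005G056300 had log2 changes of 0.44 in WT (adjusted p = 0.0441, under the fold threshold) and 0.33 in wxe (adjusted p = 0.125). Sobic.002G192600 stayed near its level, with log2 changes of -0.070 in WT (95% interval -0.28 to 0.14) and 0.032 in wxe (-0.18 to 0.25). The first turned to 0.042 without the first WT library of 16 DPA and the second to -0.017 under quantile normalization. Over the whole span from 6 to 21 DPA all 4 were called higher in WT (background 27.1%) and in wxe (background 27.5%), from 2.09-fold for Sobic.005G056300 to 17.0-fold for Sobic.003G105600 in WT, and from 5.86-fold for Sobic.002G192600 to 41.2-fold for Sobic.003G105600 in wxe.

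Since FPKM is scaled to length, the levels of the 4 genes can be set beside each other. In WT at 6 DPA the order from high to low was Sobic.002G192600, Sobic.009G086800, Sobic.005G056300 and Sobic.003G105600, with the ranges of the middle pair overlapping. In wxe at that age the last 2 were exchanged and overlapped. At 11 DPA Sobic.002G192600 was still first in both genotypes, while Sobic.003G105600 came next in WT and after Sobic.009G086800 in wxe. At 16 and 21 DPA Sobic.003G105600 was first and Sobic.005G056300 last in both. All neighbours other than the 2 pairs named were apart in their library ranges.

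**Figure D3:**
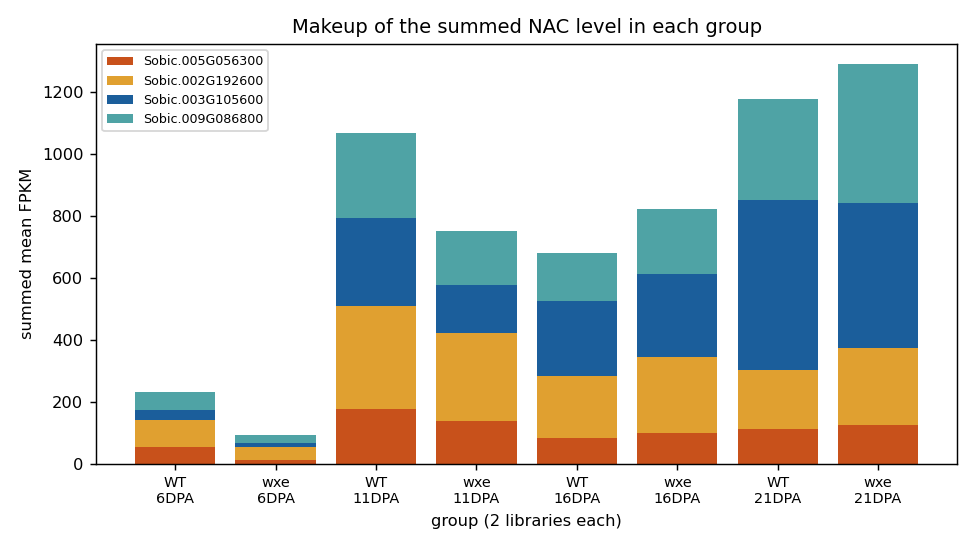
Summed mean FPKM of the 4 NAC genes in each group (y axis, from 0), stacked by gene, for WT and wxe at each age (x axis, 2 libraries a group). The sum in wxe is below WT at 6 and 11 DPA and above it at 16 and 21 DPA, and the blue block of Sobic.003G105600 is the tallest at 16 and 21 DPA in both genotypes.

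The sum of the 4 genes was 232, 1065, 679 and 1176 FPKM in WT at 6, 11, 16 and 21 DPA, and 93.6, 749.6, 822 and 1289 FPKM in wxe. The WT sum dipped at 16 DPA and the wxe sum did not. Within the sum, Sobic.003G105600 went from 13.9% in WT at 6 DPA to 46.4% at 21 DPA, and from 12.1% to 36.3% in wxe. Sobic.005G056300 made up 23.2% of it in WT and 11.8% in wxe at 6 DPA, and 9.52% and 9.57% at 21 DPA. The makeup of the sum thus differed most between genotypes at 6 DPA in the share of Sobic.005G056300 and at 21 DPA in that of Sobic.003G105600. Shares carry no test here.

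SbGBSSI, the gene whose upstream region the 4 factors were reported to bind, had a lower mean in wxe than in WT at all 4 ages. Its means in WT were 799.9, 2637, 6293 and 8703 FPKM at the 4 ages. In wxe they were 330.2, 1656, 3861 and 4404 FPKM. It climbed at every step in both genotypes, and the log2 fold changes of wxe against WT were -1.27 (6 DPA), -0.67 (11 DPA), -0.70 (16 DPA) and -0.99 (21 DPA). The limma adjusted p was 1.10e-04, 0.00691, 0.0526 and 0.00289 in the same order, so that the value of 16 DPA narrowly missed a call. The study, which tested with Cuffdiff, calls SbGBSSI different at all 4 ages. The allele itself is a stop-gained change in this gene, so that its transcript level in wxe is also a readout of the allele.

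Set against the summed NAC level, SbGBSSI stood at 3.46 FPKM per FPKM in WT and 3.53 in wxe at 6 DPA, and at 2.48 and 2.21 at 11 DPA. This ratio of group means was thus close in the 2 genotypes at the ages when the NAC sum was lower in wxe. That holds for the sum and not for each gene. At 6 DPA SbGBSSI was at 41.3% of its WT mean, Sobic.005G056300 at 20.6% and Sobic.009G086800 at 49.5%. At 11 DPA SbGBSSI was at 62.8%, Sobic.003G105600 at 54.6% and Sobic.002G192600 at 85.0%. At 16 DPA the ratio to the sum was 9.27 in WT and 4.70 in wxe, and at 21 DPA 7.40 and 3.42. The ratio carries no test. At these ages the mean NAC sum was higher in wxe than in WT, and SbGBSSI was lower.

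**Figure D4:**
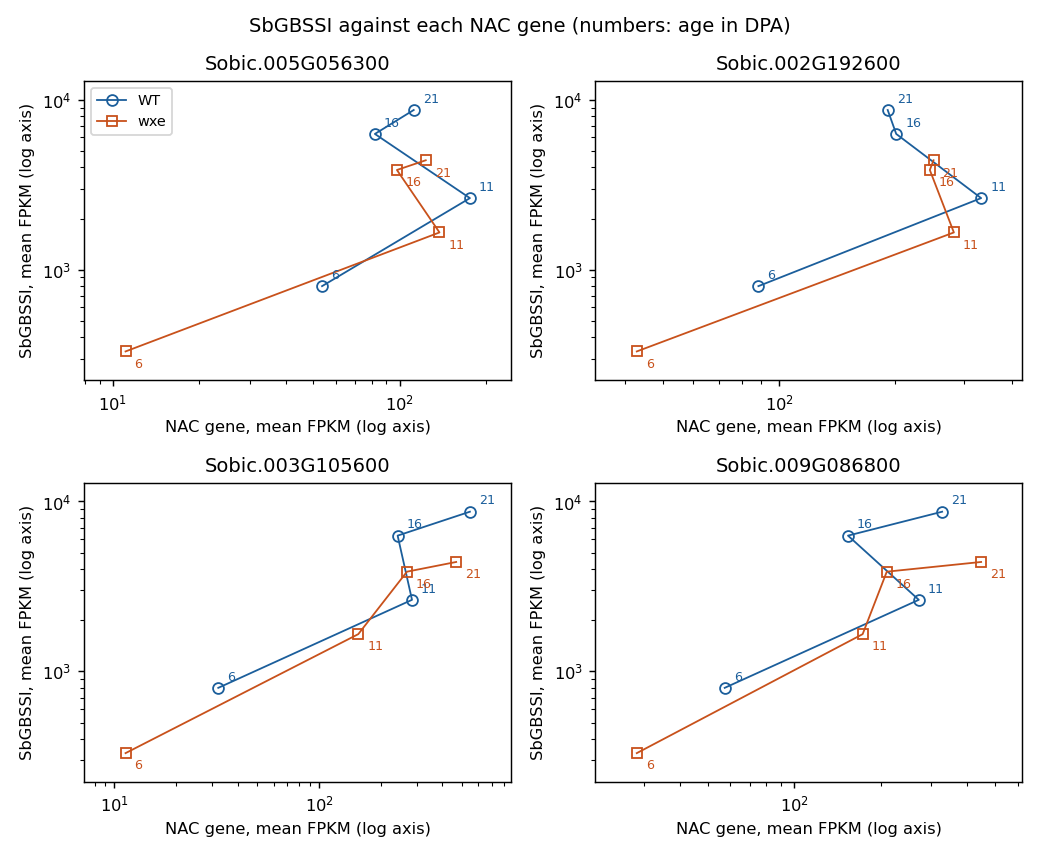
Group mean FPKM of SbGBSSI (y axis, log) against that of each NAC gene (x axis, log), with the 4 ages in DPA written beside the points and joined in order, circles for WT and squares for wxe. In every panel the wxe points of 16 and 21 DPA lie below the WT points of the same ages, and the early-peak genes turn back to the left after 11 DPA.

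Over the 8 group means of log2(FPKM + 1), Pearson's r with SbGBSSI was 0.95 for Sobic.003G105600, 0.87 for Sobic.009G086800, 0.76 for Sobic.002G192600 and 0.75 for Sobic.005G056300. These are descriptions over points that share their age, their libraries and the scaling of those libraries. The rank correlation over the same points was 0.83 and 0.69 for the late-peak genes and 0.21 and 0.31 for the early-peak genes, so that the r of the latter rests on the low values of 6 DPA. Over the 4 ages of WT alone, r was 0.92, 0.80, 0.57 and 0.46 in the first order, and over those of wxe 0.99, 0.97, 0.90 and 0.90. Within groups there was no common direction: the library with more of the NAC transcript also had more SbGBSSI in 6 of 8 groups for Sobic.009G086800, 5 for Sobic.003G105600, 4 for Sobic.002G192600 and 2 for Sobic.005G056300.

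The starch list held 8 genes named in the study's text, and the 3 lists of sucrose supply (5 genes), globulins (2) and kafirins (3) came from its text and figures. At 6 DPA 6 of 8 starch genes were called lower in wxe and 0 higher (background 5.15% and 14.4%), with a median log2 fold change of -0.82 against -1.24 for the NAC genes and 0.0075 for all genes. Besides SbGBSSI these included SbSBEIIb (Sobic.004G163700), a starch branching enzyme, from 541 to 281 FPKM, and SbAGPLS1 (Sobic.003G230500), a large subunit of the ADP-glucose pyrophosphorylase that supplies starch synthases, from 547 to 286. The study reports that SbSBEIIb itself carries a homozygous background mutation in the mutant line, which changes an amino acid. Of the sucrose supply genes 2 of 5 were called lower, the sucrose synthases SS2 (Sobic.001G344500, log2 fold change -0.74) and SS3 (Sobic.001G378300, -0.64), and invertase 3 (Sobic.004G004800), which splits sucrose, was called higher (0.95). At this age most of the starch list was thus called in the direction of the NAC genes. Both sets were named in the study's text, which reports most starch synthesis genes as lower at 6 DPA on these same libraries. The shared direction and the count against the background are therefore not independent evidence.

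At 11 DPA, when 2 of the 4 NAC genes were still called lower, SbGBSSI was the only 1 of 8 starch genes called lower (background 12.1%), and the median of the list was 0.32. SbSSIIIa (Sobic.007G068200), a soluble starch synthase, had a log2 fold change of 0.75 that did not pass the test (adjusted p = 0.0712). SS2 and SS3 were called higher (0.68 and 0.66, background 5.78%), and the sucrose transporter Sobic.001G488700 lower (-0.84). The starch list and the NAC genes thus differed in sign in their medians at this age. At 16 DPA 1 of 7 tested starch genes was called, Sobic.002G160400, a gene of the ADP-glucose step, higher by 0.80 (background 0.674%). At 21 DPA 2 of 7 were called higher, Sobic.002G160400 (0.79) and SbAGPLS2 (Sobic.009G245000, 0.72), and SbGBSSI lower (background 3.58% higher and 2.93% lower). Of the 4 tested sucrose supply genes SS2 was called higher (1.07). The medians of the starch list at 16 and 21 DPA were 0.18 and 0.46, and those of the NAC genes 0.27 and 0.27.

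The 3 kafirin genes rose with the NAC genes from 6 to 11 DPA, in WT and in wxe, and 2 of the 3 were called lower in wxe at 6 DPA (background 5.15%). At 6 DPA Sobic.009G001600, the most abundant of the 3, gave 3064 to 3846 FPKM in WT against 417 to 497 in wxe (-2.91 on the log2 scale, limma adjusted p = 5.98e-05). Sobic.010G136100 gave 49.6 to 133 FPKM against 0.313 to 0.999 (-5.67, adjusted p = 2.01e-06), while Sobic.005G186300 was near 0 in both and called higher (0.85). These 3 were picked in knowledge of how they differ between the genotypes, and kafirins occur as near-identical copies among which reads could have been split. At 11 DPA 0 of the 3 were called by limma (background 12.1% lower and 5.78% higher), with adjusted p from 0.526 to 0.953 and 0 at an unadjusted p under 0.05. At 21 DPA Sobic.010G136100 was called lower (-2.76) while the first had a value of 0.11 (adjusted p = 0.868). Sobic.005G186300 gave 368 to 442 FPKM in WT against 161 to 292 in wxe at 21 DPA (-0.89, adjusted p = 0.0521), a value that missed the threshold. At this age 1 of the 3 kafirins and 0 of the 4 NAC genes were thus called lower (background 2.93%). In value 2 of the 3 kafirins and 1 of the 4 NAC genes, Sobic.003G105600, lay below WT. With so few genes, picked as said, nothing is read from these counts.

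**Figure D5:**
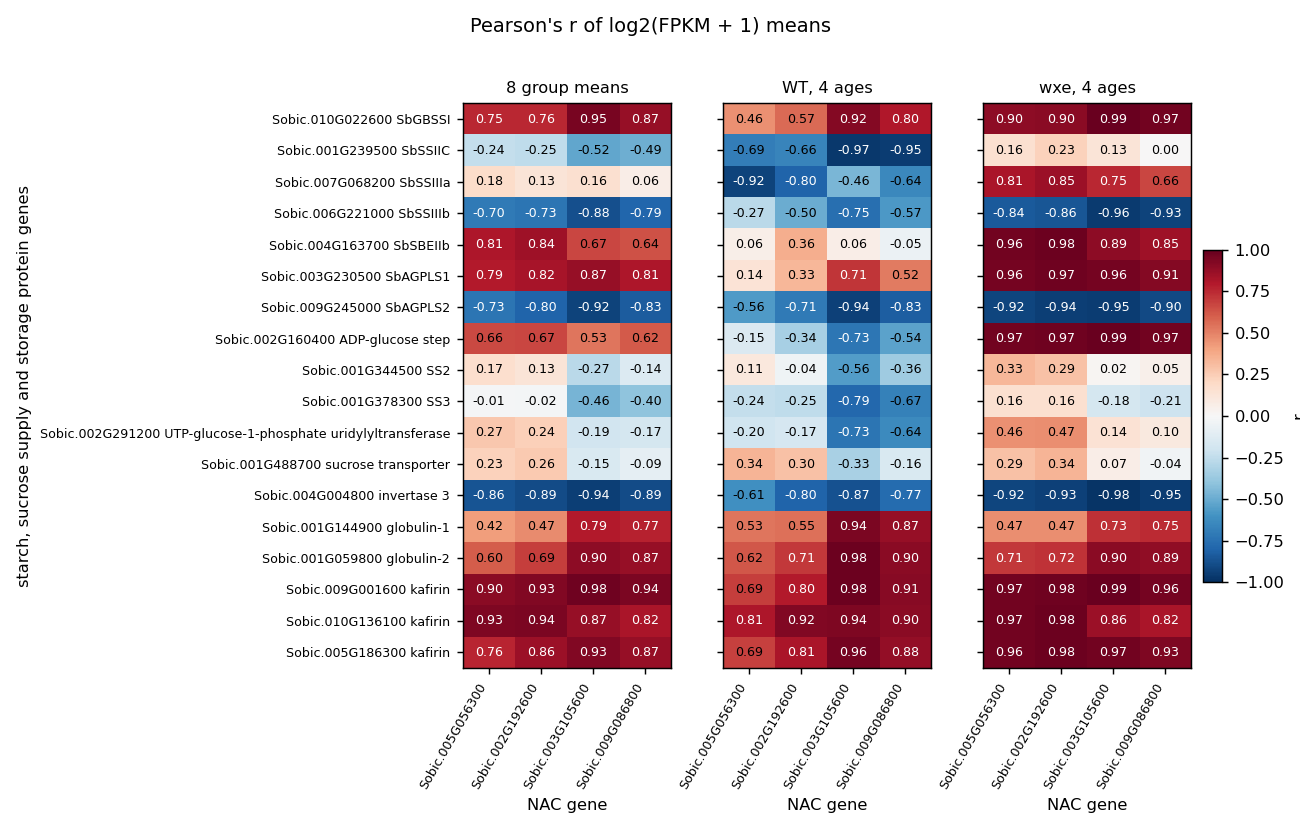
Pearson's r between each NAC gene (columns) and each starch, sucrose supply and storage protein gene (rows) over group means of log2(FPKM + 1): all 8 groups on the left, the 4 ages of WT in the middle, the 4 ages of wxe on the right, from -1 (blue) to 1 (red). The kafirin rows are red throughout, with r from 0.69 to 0.99, and the rows of SbSBEIIb and Sobic.002G160400 are red in wxe and pale or blue in WT.

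As a description over the 8 means, Sobic.009G001600 had an r of 0.98 with Sobic.003G105600, 0.94 with Sobic.009G086800, 0.93 with Sobic.002G192600 and 0.90 with Sobic.005G056300. The relation to several starch genes differed between genotypes. SbSBEIIb had r between -0.05 and 0.36 with the 4 NAC genes over the ages of WT and between 0.85 and 0.98 over those of wxe. The part of the background mutation that SbSBEIIb carries in the mutant line was not tested. For Sobic.002G160400 r ran from -0.73 to -0.15 in WT and from 0.97 to 0.99 in wxe. In WT these 2 genes were already near their later level at 6 DPA, at 541 and 134 FPKM, when the NAC genes were not, whereas in wxe they were low at 6 DPA (281 and 82.4 FPKM) together with them. SbSSIIIb (Sobic.006G221000), SbAGPLS2 and invertase 3, which were highest at 6 DPA in both genotypes, had negative r with all 4 NAC genes in both.

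Among themselves the NAC genes fell into the same pairs as by their peaks. Over the 8 means, r was 0.98 between Sobic.003G105600 and Sobic.009G086800 and 0.96 between Sobic.005G056300 and Sobic.002G192600, and between 0.88 and 0.90 for the 4 pairs across. Whether the members of a pair share stretches of sequence on which reads could be placed in either was not examined, and how reads that align to several places were handled is not given in the sources used here. Within groups, the library that was higher for Sobic.003G105600 was also higher for Sobic.009G086800 in 5 of 8 groups, and for Sobic.005G056300 and Sobic.002G192600 the count was 4 of 8.

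The genes most like each member were taken as the 5 with the highest r over the 8 means, among the 18349 genes that exceeded 1 FPKM in at least 1 group mean. For Sobic.003G105600 these were Sobic.004G313800 (r = 0.999, at 5.10 to 319 FPKM in the group means), Sobic.004G261700, Sobic.003G438700, Sobic.010G075800 and Sobic.006G198300, all at 0.996 or above. For Sobic.009G086800 they were Sobic.005G205100 (r = 0.996), Sobic.001G100000, which the study places at the ADP-glucose step of starch synthesis, Sobic.001G116700, Sobic.003G252900 and Sobic.009G149400. For Sobic.002G192600 they were Sobic.006G238600 (r = 0.98), Sobic.009G229900, Sobic.008G168400, Sobic.002G067600 and Sobic.005G189000, which the study lists as a kafirin, at 92.7 to 33930.0 FPKM. For Sobic.005G056300 they were Sobic.007G075900 (r = 0.98), Sobic.003G151000, Sobic.003G358200, Sobic.001G112350 and Sobic.006G185100, of which none had a group mean above 27.6 FPKM. The late course was the more common: r exceeded 0.9 with 1330 genes (7.25%) for Sobic.003G105600 and 894 (4.87%) for Sobic.009G086800, and with 333 (1.81%) for Sobic.002G192600 and 214 (1.17%) for Sobic.005G056300.

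The study's text names 8 further transcription factors, also chosen on these libraries. At 6 DPA 4 of the 8 were called lower in wxe (background 5.15%), among them the bZIP genes Sobic.002G054800 (log2 fold change -1.37) and Sobic.002G055000 (-0.97), and 3 higher (background 14.4%), among them the MYB gene Sobic.003G267400 (1.64) and the ZF-HD gene Sobic.005G019800 (1.42). At 11 DPA the last 2 were among 4 called lower (-1.28 and -0.81, background 12.1%). Of the 8, the B3 gene Sobic.007G083900 was the one called at 16 and at 21 DPA, higher by 1.21 and 0.97 (background 0.674% and 3.58%). None of the 4 NAC genes was called in opposite directions at 2 ages, as Sobic.003G267400 and Sobic.005G019800 were.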

How the data were processed

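Endosperm RNA of BTx623 (WT) and 15M2-1184 (wxe) was sequenced at 6, 11, 16 and 21 DPA, with 2 libraries a group, by a DNBSEQ transcriptome protocol. Per the study's methods, the authors checked reads with FastQC, aligned them with STAR to version 3 of the sorghum genome and computed FPKM per gene with Cufflinks; the submitters' processing notes also name Trimmomatic. They deposited these values for 34129 genes. Tool versions are not given in the sources used here. FPKM holds no counts, so no count model was fitted and no counting interval is given.

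The values were tested as log2(FPKM + 1) with limma 3.58.1 in R 4.3.3, all 8 groups sharing 1 linear model whose prior variance followed mean expression. A gene was tested where either group compared averaged above 1 FPKM, and p was adjusted by Benjamini-Hochberg over all of them. A call needed an adjusted p under 0.05 and a log2 fold change of at least 0.58, for differences between effects the p alone. Fold changes on this scale understate those of low genes. Intervals are 95%. The study calls its replicates biological, each from 3 panicles that flowered on one day, and kept replicates by their correlation, which can make the spread behind p smaller. The code was tested on simulated data.

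Named genes were the 4 NAC genes, every gene of the starch, sucrose supply, globulin and kafirin lists, and the 5 genes of highest r with each member. Members and lists were chosen with earlier results of these data known. 8 other factors of the study's text, and 2 annotations of genes found by r, were named beside this rule. The reference table used (32945 genes) shared 0 gene IDs with the deposited table, so lists by annotation were not built and no sequence is shown. Alternatives were a pseudocount of 0.1, no filter, a filter at 5 FPKM, the replicate number as a block, median-ratio and quantile scaling, no variance trend, a fit of the compared groups only, the fold taken from the ratio of means, and leaving out every library in turn.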

Additional observations from a re-analysis of the deposited data

Results flagged for a closer look

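The results listed here are those in which the difference between wxe and WT itself differed between 2 ages, by a test in the model of all 8 groups (limma, adjusted over all genes tested). Each value is the log2 fold change of wxe against WT at the earlier age less that at the later age. The genes were named for their low level in wxe at 6 DPA on these libraries, so the values that start from 6 DPA are largely set by that choice and are given without p. Between 6 and 11 DPA it was -1.85 for Sobic.005G056300, -0.59 for Sobic.003G105600 and -0.80 for Sobic.002G192600. Between 6 and 16 DPA it was -2.45 for Sobic.005G056300, -1.60 for Sobic.003G105600, -1.44 for Sobic.009G086800 and -1.32 for Sobic.002G192600. Between 6 and 21 DPA it was -2.33 for Sobic.005G056300, -1.23 for Sobic.003G105600, -1.45 for Sobic.009G086800 and -1.42 for Sobic.002G192600.

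The contrasts of 11 DPA with later ages were added after the values were seen. Between 11 and 16 DPA the difference was -1.02 for Sobic.003G105600 (adjusted p = 0.00939 from limma), -1.10 for Sobic.009G086800 (0.00117) and -0.52 for Sobic.002G192600 (0.0248), the last lost in 6 of 17 alternatives, 5 of which left out a single library. Between 11 and 21 DPA it was -1.10 for Sobic.009G086800 (adjusted p = 0.00117 from limma) and -0.63 for Sobic.002G192600 (0.0116). All 16 values are negative, and those that share an age share its libraries. The summed globulin level, which was higher in the wxe libraries than in the WT libraries at 6, 16 and 21 DPA and lower at 11 DPA, moved between the same libraries, and its part in these values was not tested.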

How the results depend on the processing

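The 4 calls at 6 DPA and the calls on unlike effects at 6 DPA and at 16 or 21 DPA held for every NAC gene under all 9 alternative settings and with each library left out. The genes were named for their low level in wxe at 6 DPA on these libraries, so this adds no independent support. The counts that moved by over 1.5 times did so under quantile normalization, each to 1: the genes called lower in wxe at 11 DPA (from 2), lower in WT from 11 to 16 DPA (from 3), and differing in effect between 11 and 16 DPA (from 3) and between 11 and 21 DPA (from 2). With libraries left out the first ranged from 1 to 2. Quantile normalization moved the median of all genes by 0.15 from 6 to 11 DPA and by 0.16 from 6 to 21 DPA in wxe, and by -0.15 in the difference between 6 and 11 DPA, and by less than 0.1 elsewhere.

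Signs turned only for values that were not called. Under quantile normalization Sobic.003G105600 from 11 to 16 DPA in WT became 0.19, and Sobic.002G192600 in wxe became 0.041 from 11 to 16 DPA and -0.017 from 16 to 21 DPA. For Sobic.009G086800, the effects at 16 and 21 DPA differed by 0.027 under median-ratio scaling and 0.13 under quantile normalization, and by -0.078 to 0.074 with libraries left out. For Sobic.002G192600, leaving out libraries gave -0.21 to 0.010 for that difference and -0.18 to 0.042 for the change from 16 to 21 DPA in WT. The cause was not tested.

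For Sobic.003G105600 the call on unlike effects at 6 and 11 DPA was lost in 10 of 17 alternatives: its adjusted p (limma) was between 0.0396 and 0.114 over the settings and between 6.25e-04 and 0.150 with libraries left out, at values from -0.88 to -0.29. In place of r, rank correlation with SbGBSSI gave 0.31 for Sobic.005G056300, 0.83 for Sobic.003G105600, 0.69 for Sobic.009G086800 and 0.21 for Sobic.002G192600. The replicate number as a block left 4 genes called lower at 6 DPA and 2 at 11 DPA and changed no call of a NAC gene. Libraries with the same number in WT and wxe had correlations of their deviations of -0.28, 0.21, -0.01 and 0.11 at the 4 ages. Over all 28 pairs of groups these ran from -0.28 to 0.37, and 12 were over 0.1. Whether libraries of the same number share more than that number was not tested. A library left out leaves a group with 1, which is then assumed to vary like the others. The fewer reads behind a given FPKM at the later ages limit low values most, and the 4 NAC genes were above 8 FPKM in every library. The depth of sequencing itself was not recovered.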
